A study of Mus musculus with 2 samples.

Results

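In the mouse hypothalamus at postnatal day 10, 1054 short restriction fragments gave little array signal from either the paraventricular nucleus (PVH) or the arcuate nucleus (ARH). They lie where restriction sites for the assay crowd together. They were drawn from 3590 candidates among the 23738 intervals of the deposited table. A candidate was an autosomal interval in a chain of at least 3 touching intervals, each starting at the base after the last one ended, with at least 2 array probes wholly inside it. A candidate was called dim, and is a subject here, when its level was under 8.2. The level is the mean log2 processed signal over its probes, both nuclei and both arrays, and 8.2 corresponds to a linear signal of 294. Since the level chose these fragments, their low signal is a description and not a finding.

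DNA methylation in mammals sits mostly on the cytosine of CpG dinucleotides. CpG islands, the CpG-rich stretches at many gene starts, are as a rule unmethylated in somatic cells, while most other CpGs are methylated. The assay, methylation-specific amplification microarray, digests DNA in 2 rounds. SmaI cuts CCCGGG only where the CpG carries no methyl group, and its ends are blunt. XmaI then opens the remaining, methylated sites of that sequence and leaves cohesive ends. Adaptors join cohesive ends alone, so a fragment is amplified by PCR and gives signal when both of its end sites were methylated. Low signal can follow from an unmethylated end or from poor amplification or hybridization, and the level of a fragment cannot tell these apart. Chains of touching intervals stand in for CpG islands here. That use was not checked, since the probe sequences and a genome of the files' build (mm8) were not used here, and for the same reason no fragment is given a gene name or a sequence.

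The samples were 2 two-colour arrays, each hybridized with a PVH pool and an ARH pool of C57BL/6 mice of mixed sex at postnatal day 10. Each pool held 7 dissected pieces, 500 ng of DNA entered the digestion, and 2 µg of each product was labelled. The dyes were swapped between the arrays, with PVH in Cy5 on replicate 1 and in Cy3 on the other. The label for the nucleus compared with PVH is not uniform: sample titles, source names and the design text say ARH, whereas the series title and the tissue entry say VMH, the ventromedial nucleus. ARH is used here. A dissected nucleus holds neurons, glia and vessel cells, whose shares in these pools are not known and cannot be checked from DNA signals. The labels call the arrays biological replicates, without saying which animals gave which pool. The p-values therefore rest only on the spread between these 2 arrays, pooled over all tested intervals.

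The low level was shared by both nuclei and both arrays. The median linear signal of the dim fragments on replicate 1 was 128 in PVH and 134 in ARH, and on replicate 2 it was 155 in PVH and 148 in ARH. The other 2536 site-dense fragments had medians of 1106 and 1226 on replicate 1 and of 1824 and 1579 on replicate 2, in the same order. Of the 1054 dim fragments, 988 were under the limit in both nuclei when each nucleus was averaged over the arrays, 22 were under it in PVH only and 44 in ARH only, and 842 were under it in each of the 4 measurements. The name "dim in both nuclei" thus held for most members and missed 66 that were over the limit in 1 nucleus. The highest nucleus mean was 8.51, in ARH at chr5:119918478-119919746, where the PVH mean was 5.11. The 66 also held chr8:73423702-73424606 (PVH 7.47, ARH 8.49) and chr15:99248053-99249016 (PVH 7.38, ARH 8.31). These named fragments passed the test of the nuclei described further on.

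**Figure D1:**
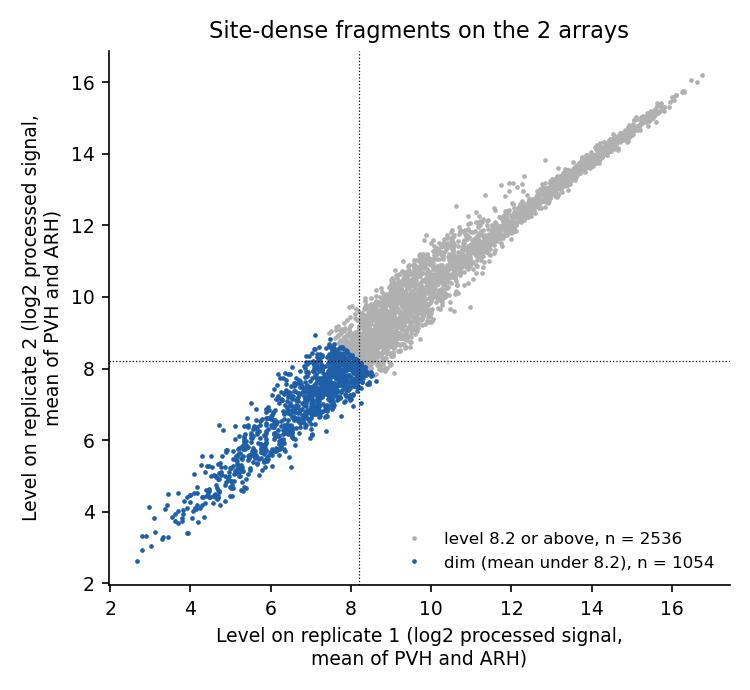
Level of 3590 site-dense fragments on replicate 1 (x) and replicate 2 (y), each as mean log2 processed signal of PVH and ARH, with dotted lines at 8.2. The 1054 dim fragments form the lower end of one continuous cloud, which has no gap at the limit.

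Each array alone chose much the same fragments, and this comparison is free of the selection when members picked on one array are read on the other. Replicate 1 alone put 1132 fragments under 8.2, of which 923 (81.5%) were also under it on replicate 2. Of 2458 fragments at or above 8.2 on replicate 1, 79 (3.21%) were under it on replicate 2. Most disagreement lay near the limit, since 134 of the 209 fragments lost on replicate 2 were within 0.5 of it there. Replicate 2 was brighter by a median log2 level of 0.14 over all site-dense fragments and picked 1002, of which 92.1% were also under the limit on replicate 1. The limit itself fell in a dense part of the distribution. The 3 members closest below it were chr1:91412101-91412918, chr11:118724504-118725084 and chr11:69815347-69817007, at 8.199, 8.198 and 8.197. The 3 candidates closest above it, chr3:96782769-96783014, chr11:33046949-33047227 and chr15:8390946-8391226, were all at 8.201 or less.

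Dim did not mean undetected for most of these fragments. Of their 3858 probes, 2941 (76.2%) were well above background in both channels of both arrays by the scanner software's own flag, against 99.7% of 9425 probes in the brighter site-dense fragments. In 550 dim fragments every probe passed that flag everywhere, and in 11 no probe passed it anywhere. A further yardstick is given by the 1196 negative control spots, whose median log2 processed signal was 2.42 to 2.85 in the 4 measurements. The 95th percentile of these spots was 6.16 to 6.58, and 240 members (22.8%) were under it in all 4 measurements while 623 were above it in all 4.

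Probes within a dim fragment did not all read alike. The gap between the brightest and the dimmest probe of a fragment had a median of 2.59 on the log2 scale, or 6.02-fold, against 1.77 in the brighter fragments. In 612 of the 1054 dim fragments at least 1 probe was at or above the limit, and in 184 at least 1 probe reached the median level of all site-dense fragments, 9.41. All probes of a fragment share its pair of end sites.

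The dimmest members were at the floor of the measurement. In chr3:96582884-96584740, a fragment of 1857 bp, PVH and ARH read 6.46 and 6.34 on replicate 1 and 7.29 and 5.21 on replicate 2, in linear signal. None of its 4 probes was well above background in any channel. The same was true of every probe in chr13:72426247-72427958, chr15:98124299-98126032, chr6:120179497-120179923 and chr1:180243248-180244649, and of 2 of 3 probes in chr9:103058637-103060231. The mean levels of these 6 fragments ran from 2.65 to 3.26, where values have no meaningful order. Of the 6, 5 were between 1402 and 1857 bp long, and the one on chromosome 6 had 427 bp and only 2 probes.

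The dim fragments differed from the brighter ones in length, which the rule did not use. Their median length was 1096 bp against 624 bp, and 364 of them (34.5%) were 1500 bp or longer, a class that held 15.6% of all site-dense fragments. Members were also common among the shortest fragments. Between 200 and 299 bp, 35.4% of site-dense fragments were dim. The share was 10.8% between 600 and 799 bp and 69.0% in the longest class, which reached 2000 bp. The same course was seen on each array alone: 69.0% in the longest class stood beside 68.3% and 71.0% on replicates 1 and 2 taken alone, and 10.8% beside 12.6% and 9.47%. Length moved with dimness in this way, and its part in the levels was not tested.

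**Figure D2:**
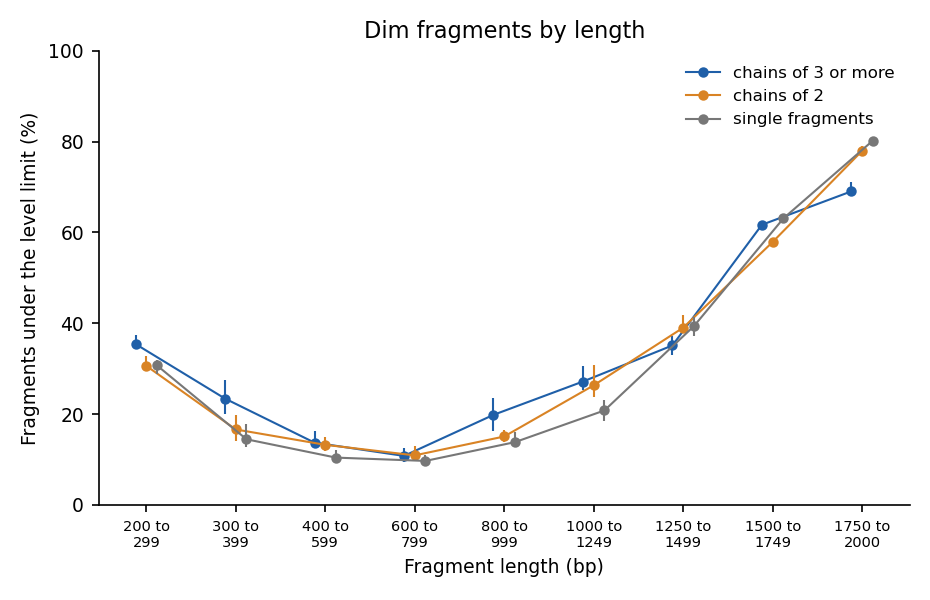
Percentage of fragments with a level under 8.2 (y) by fragment length in bp (x), for chains of 3 or more, chains of 2 and single autosomal fragments. Points use the mean of both arrays and vertical lines join the values of the arrays taken alone, and all 3 classes are lowest between 600 and 799 bp and highest in the longest class.

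The share of dim fragments was similar in the pooled classes of crowding. It was 29.4% in chains of 3 or more, 29.1% in chains of 2 and 30.1% among 13497 single fragments. The first and last of these were 31.5% and 31.7% on replicate 1 and 27.9% and 29.0% on replicate 2. Within the site-dense class it varied with the number of fragments in the chain, from 29.4% in chains of 3 and 30.0% in chains of 4 to 24.5% in chains of 5, 29.9% in chains of 6 and 35.5% in chains of 7. The longest chains held few fragments, with 3 of 24 dim in chains of 8 and 13 of 26 in chains of 9. At equal length the classes were not the same throughout. From 400 to under 1000 bp, called the middle lengths here, 14.3% of 1439 site-dense fragments and 11.1% of 4969 single fragments were dim, and from 1500 bp upwards 65.0% of 560 and 71.6% of 2723 were. The level of the middle lengths as a whole was lower where sites were crowded, with a median of 10.49 in site-dense and 11.81 in single fragments of the middle lengths. These differences between fragment classes were not tested.

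The 206 dim fragments of the middle lengths were dim at the lengths where the dim share was lowest, at 14.3% of site-dense fragments. They made up 19.5% of the members, and their probes were above background a little more often, with 82.0% of 766 probes passing in all 4 measurements. Of the 206 fragments, 93 (45.1%) lay inside their chain and not at its end. The share was 40.5% of all members and 42.4% of the brighter fragments, both taken at all lengths. Position in the chain thus separated dim from bright only weakly: 427 of 1501 inner fragments and 627 of 2089 end fragments were members.

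Neighbours of dim fragments were more often dim than neighbours of brighter ones. Touching fragments share a site, and a site without methylation gives neither of them a cohesive end. The counts that follow are descriptions with no test. Of 1450 measured fragments touching a dim one, 566 (39.0%) were themselves dim, against 884 of 3556 (24.9%) touching a brighter one. The shares were 43.0% and 26.1% on replicate 1, and 36.4% and 24.0% on replicate 2, each array being used for both the fragment and its neighbour. Where both fragments were of the middle lengths, 36 of 129 (27.9%) neighbours of a dim fragment were dim, and 93 of 721 (12.9%) neighbours of a brighter one.

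The difference in shares was also seen beyond the shared site. A fragment 2 steps away shares no site with the first, and 316 of 869 (36.4%) of these were dim next to 553 of 2107 (26.2%) for brighter starting fragments. With both fragments of the middle lengths the figures were 28 of 74 and 46 of 438. At 3 steps, 110 of 283 (38.9%) and 173 of 635 (27.2%) were dim at any length. Every touching pair of dim fragments is counted from both sides here, and pairs from one chain are not independent.

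**Figure D3:**
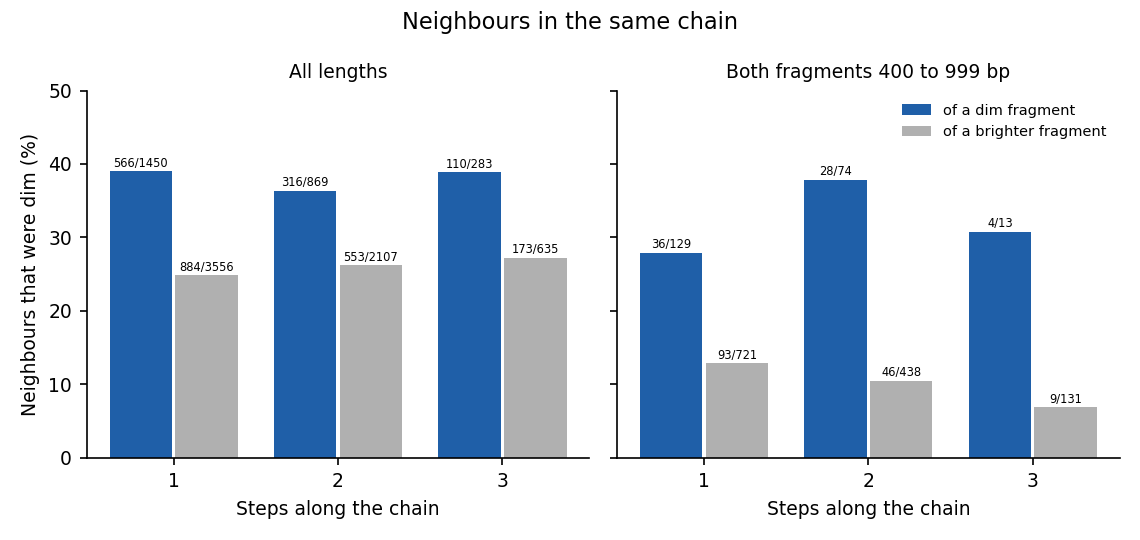
Percentage of neighbours that were dim (y) at 1, 2 and 3 steps along the chain (x), for dim starting fragments (blue) and brighter ones (grey), at all lengths (left) and with both fragments of 400 to under 1000 bp (right). Numbers over the bars are dim neighbours over neighbours measured, and the blue bar is higher at each step in both panels, with only 13 dim-start pairs at 3 steps on the right.

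An inner fragment shares both of its end sites with its neighbours, which need those sites in methylated form to be amplified. Of 413 inner members with both neighbours measured, 69 (16.7%) had both neighbours at or above the site-dense median of 9.41, and 70 (16.9%) had both neighbours dim. Among 1047 inner brighter fragments the counts were 389 (37.2%) and 84 (8.02%). The 69 were long, with a median of 1463 bp and 34 of them at 1500 bp or more, whereas the median of the 70 was 884 bp. Of the 69, 12 were of the middle lengths.

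The members beside the brightest neighbours show how steep the step could be. The fragment chr17:25105112-25106695 (1584 bp) had linear signals of 252 in PVH and 191 in ARH on replicate 1 and of 180 and 211 on replicate 2. Its neighbours in a chain of 7 had log2 levels of 16.02 and 12.77, while its own was 7.69. The fragment chr4:129512549-129513639 (1091 bp, 2 probes), also in a chain of 7, was at 7.65 between neighbours at 15.32 and 13.91. At the ends of chains of 3, chr4:138815381-138815600 (220 bp) was at 7.97 beside 15.40, and chr13:51713242-51715169 (1928 bp) was at 5.68 beside 15.30. The log2 ratio of PVH over ARH in these 4 lay between -0.11 and 0.28, and none passed the test of the nuclei described further on.

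Members were spread over 655 of the 1059 chains that had a measured candidate. In 358 chains a single fragment was dim, 213 held 2, 68 held 3, 14 held 4 and 2 held 5. All measured fragments were dim in 45 chains, which together contained 139 members, and 8 of these 45 had 4 members. Those 139 were not mainly long, since their median length was 860 bp and 31 were 1500 bp or more. Of the others, 45 were under 400 bp and 36 were of the middle lengths.

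The 4 all-dim chains with the lowest mean level of those 8 lay on chromosomes 18, 14 and 2. The chain at chr18:84219828-84222537 had successive log2 levels of 8.04, 3.72, 5.97 and 7.70 over fragments of 480, 1419, 425 and 386 bp. In its fragment of 425 bp, PVH and ARH read 74.9 and 69.3 on replicate 1 and 57.0 and 51.6 on replicate 2 in linear signal. That fragment, of a length at which most site-dense fragments were brighter than the limit, was dim in all 4 measurements.

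The chain at chr14:57024839-57029061 had levels of 7.17, 8.06, 5.63 and 4.75 over 528, 1058, 880 and 1757 bp. The log2 level of its fragment of 880 bp was 5.40 in PVH and 5.46 in ARH on replicate 1, and 6.00 and 5.64 on replicate 2. The chain at chr14:83252501-83256860 ran 5.12, 7.73, 7.39 and 6.40 over 1479, 277, 1189 and 1415 bp. The chain at chr2:4798789-4802527 stepped down from 8.07 through 7.82 and 7.02 to 4.49 over 447, 571, 888 and 1833 bp. In each of these chains, that on chromosome 18 included, the lowest fragment was also the longest. In the chain on chromosome 2 and the one at chr14:57024839-57029061 that fragment came last.

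The 2 chains with 5 members had 9 fragments each, and they are given here because of that count, after their values were seen. At chr14:20776164-20783066 the levels ran 9.50, 9.93, 7.92, 6.74, 5.91, 5.47, 6.61, 14.38 and 11.23 from left to right. The 5 dim fragments were neighbours and covered 5217 bp, and the fragment to their right, chr14:20782109-20782769, was the bright one at 14.38. That bright fragment and the one after it had less PVH than ARH signal, with log2 ratios of -1.46 ± 0.47 and -1.54 ± 0.13 (SD, n = 2 arrays), and both passed the limma test (adjusted p = 5.8e-06 and 1.1e-06). None of the 5 dim fragments passed, with ratios of 0.11, -0.16, 0.01, -0.28 and -0.58.

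The other chain, at chr4:134420021-134426404, had 8 fragments with at least 2 probes. Its levels were 10.15, 9.78, 6.55, 5.29, 8.10, 8.82, 7.30 and 6.75, with a fragment measured by 1 probe left out after the one at 6.55. Here dim fragments lay on both sides of a brighter one of 221 bp, and the lowest was the longest, with 1853 bp. Among these 8 fragments the ratio of PVH over ARH was lowest in the one at 6.55, at -0.81 ± 0.36, and did not pass (adjusted p = 0.087, limma). The fragment left out, chr4:134422482-134422733, had a wider gap at its 1 probe and was not tested. There PVH and ARH read 55.0 and 176 on replicate 1, and 85.9 and 197 on replicate 2.

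**Figure D4:**
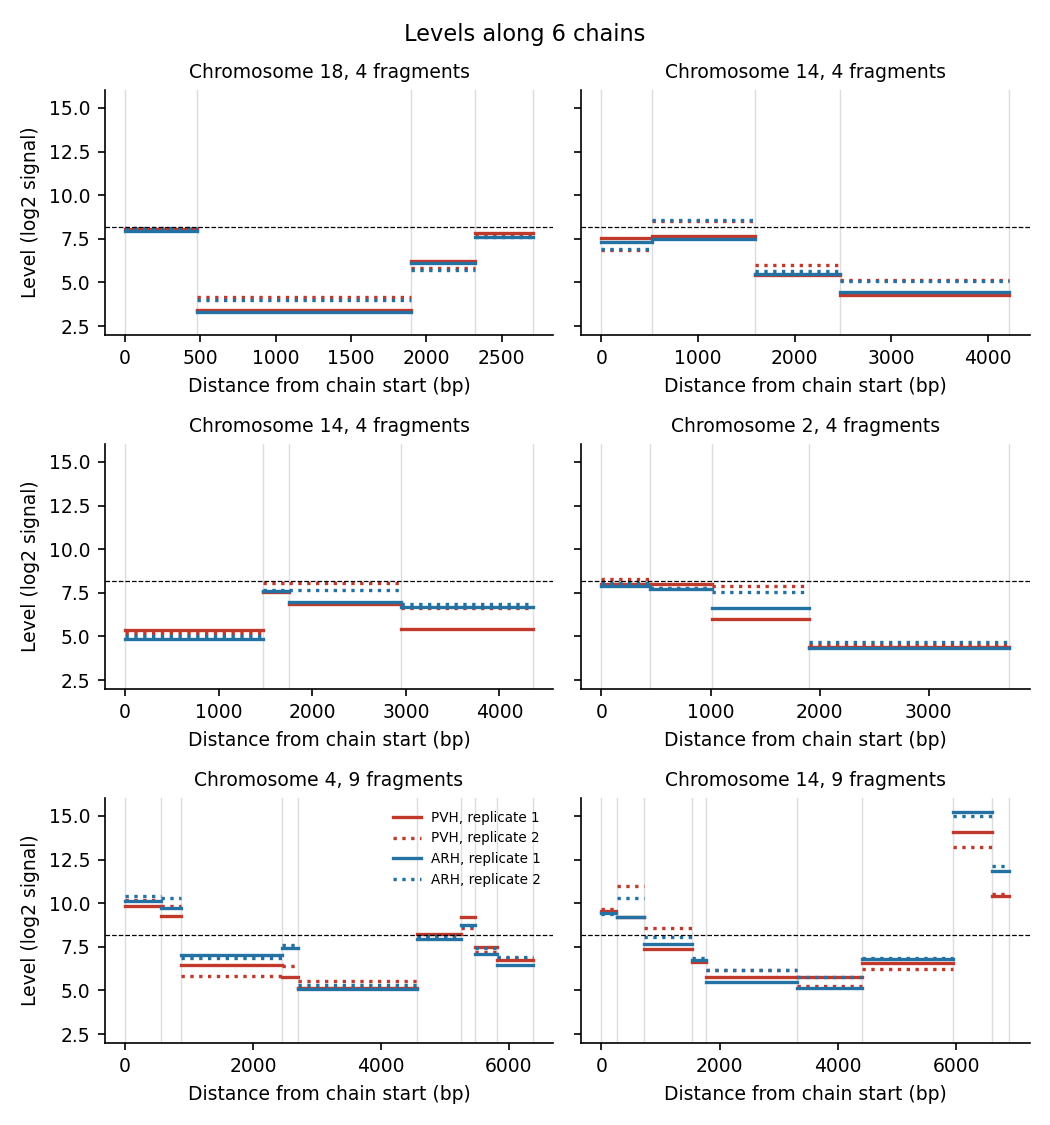
Log2 level (y) of each fragment against distance from the start of its chain in bp (x) in 6 chains, with PVH in red, ARH in blue, replicate 1 solid and replicate 2 dotted. The dashed line is 8.2 and pale vertical lines are the restriction sites. The upper 4 chains have every fragment mean under the line, and in the lower pair 5 fragments each are dim, with the step to 14.38 at the right of the chromosome 14 chain.

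Over longer distances the members formed loose groups, which were picked after their values were seen. Joined across gaps of up to 100000 bp, they fell into 592 groups, of which 293 were single fragments and 15 held at least 5. The group with the most members, chr19:45081846-45286924, held 12 dim fragments among 21 site-dense ones in 6 chains. Its members had median log2 levels of 6.66 in PVH and 6.87 in ARH on replicate 1 and of 6.90 and 6.81 on replicate 2. A second group on that chromosome, chr19:44722002-44814543, had 6 dim among 9 site-dense fragments. At chr2:9795357-9801926, 6 of 8 were dim within 6570 bp. At chr11:118857404-118905830, all 5 site-dense fragments were dim, and their median length was 1655 bp.

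Chromosomes differed in the share of their site-dense fragments that was dim. It was 48.4% on chromosome 18 (44 of 91), 44.8% on chromosome 14 (43 of 96) and 39.8% on chromosome 13 (43 of 108), and 20.0% on chromosome 4 (61 of 305) and 21.6% on chromosome 17 (41 of 190). On the separate arrays, chromosome 18 stood at 50.5% and 45.1%, and chromosome 4 at 20.7% and 18.7%. Among fragments of the middle lengths, 9 of 36 were dim on chromosome 18, 10 of 38 on chromosome 14 and 11 of 40 on chromosome 13. On chromosome 4 it was 14 of 133, and on chromosome 17 it was 4 of 70. Chromosome 11 had the largest number of members, 101, but also the most candidates, 364, and its share was 27.7%.

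The comparison of PVH with ARH asks where methylation of fragment ends differs between the nuclei, and it was not used in choosing the members, though ratio and level come from the same spots. A log2 ratio above 0 means more signal from PVH. It was tested on all 22350 intervals with 2 or more usable probes by limma, with Benjamini-Hochberg adjustment at 0.05. Of the 1054 members 959 could be tested. The remaining 95 had fewer than 2 usable probes, a probe being usable when each array flagged it above background for PVH, ARH or both. A probe could thus enter through its brighter nucleus alone.

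Of the 959 tested members, 10 (1.04%) differed between the nuclei, against a background of 1.39% over all 22350 intervals and 1.42% of the 2536 brighter site-dense fragments. Lower in PVH were 8, with a background of 0.944%, and higher in PVH were 2, with a background of 0.447%. Dim fragments were thus called about as often as intervals in general. The median log2 ratio of the tested members was 0.06, beside 0.01 over all tested intervals and 0.04 in the brighter site-dense fragments. It was 0.05 on replicate 1 and 0.03 on replicate 2, and the middle 50% of members lay from -0.13 to 0.17. The standard error was 0.26 for every interval, since limma estimated one common variance. A call needed a mean ratio of 0.87 or more in size, that is 1.82-fold. A p-value thus follows the size of the mean ratio and not the agreement of the 2 arrays in that fragment. Members with smaller mean ratios did not pass in this fit. The ratios of the 2 arrays agreed little, with a Pearson r of 0.22 over the tested members and 0.088 over all tested intervals. Their signs matched in 53.9% of the tested members and in 48.9% of all tested intervals. In the simulation described under the processing, 28 of 137 calls were false, a larger share than the threshold of 0.05 allows for. The adjusted p-values are to be read with that limit.

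**Figure D5:**
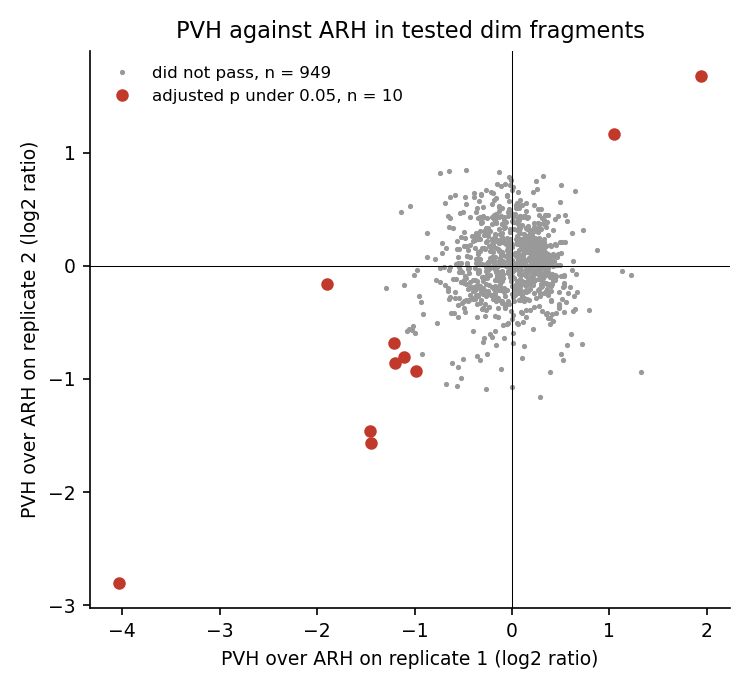
Log2 ratio of PVH over ARH on replicate 1 (x) and replicate 2 (y) for 959 tested dim fragments, with the 10 that passed the limma test in red. Of these, 8 lie at lower left and 2 at upper right, and 1 of the 8 (on chromosome 11) is near 0 on replicate 2.

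The count of 10 varied with the processing. It was 8, of which 7 were among the 10, with normexp background correction followed by loess, where the background was 3.02%. It was 1 with normexp and no loess, where chr5:119918478-119919746 alone passed and the background was 0.166%. With a trended robust prior it was 18, all 10 among them, and the background was 2.03%. When only probes above background in both channels on both arrays were kept, 906 members could be tested and 8 passed, with a background of 1.44%. Of these 8, 7 were among the 10 and 0 were higher in PVH. A second description needs no model: a ratio of at least 1.5-fold in the same direction on both arrays. It was met by 11 members lower in PVH (1.15%, background 1.61%) and 3 higher in PVH (0.313%, background 0.689%), while 7 reached that size in opposite directions (0.730%, background 0.953%). Of the 10 fragments, 5 were at the end of their chain and 5 inside, each in a chain of its own, and 2 were of the middle lengths. Agreement in sign between arrays follows largely from the size that a call needs, so it is no separate evidence.

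The fragment with the greatest PVH deficit was chr5:119918478-119919746 (1269 bp, 3 probes). Its linear signals were 20.0 in PVH and 325 in ARH on replicate 1, and 59.3 in PVH and 411 in ARH on replicate 2. Both PVH values were thus below both ARH values, and the ARH level alone was above the limit that chose the dim fragments. The log2 ratio was -3.41 ± 0.87 (SD, n = 2 arrays; adjusted p = 1.7e-36, limma), and over the alternatives tried it ran from -3.66 to -1.82 with adjusted p up to 0.021. The PVH signal of replicate 1 failed the background flag at 2 of its 3 probes. With only probes above background in every channel, fewer than 2 were left and the fragment could not be tested. Its touching neighbour chr5:119917080-119918477, just over the limit at 8.47, was also lower in PVH, at -1.86 (adjusted p = 4.9e-10, limma).

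The end fragment of a chain of 4, chr9:32294468-32296138 (1671 bp), read 61.8 in PVH and 169 in ARH on replicate 1, and 59.6 and 164 on replicate 2. The arrays gave nearly the same values, and the ratio was -1.46 ± 0.0071 (adjusted p = 5.8e-06, limma). The fragment touching it, chr9:32293411-32294467, had a level of 10.18 and a ratio of -1.93 (adjusted p = 1.1e-10, limma). Here a dim and a bright fragment that share a site were both lower in PVH. The dim one failed the background flag for PVH at 1 of 4 probes on replicate 2. The ratio of the dim one was -0.74 with normexp alone, where it did not pass (adjusted p = 0.25, limma).

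On chromosome 6, chr6:6815281-6817126 (1846 bp, 3 tested probes of 4) read 50.4 in PVH and 105 in ARH on replicate 1, and 47.4 and 99.7 on replicate 2, over all of its probes. Its ratio over the tested probes was -1.51 ± 0.087 (adjusted p = 2.1e-06, limma). The PVH signal of 1 tested probe failed the background flag on both arrays, and with only probes above background in every channel the ratio was -1.19. Its probes did not read alike: the one at the left, from 6815430, had 420 in PVH and 417 in ARH on replicate 1, while the one at the right, from 6817004, had 68.9 and 310. On replicate 2 the left probe had 367 in PVH and 594 in ARH, and the right probe had 66.3 and 241. With the values of the authors' deposited table the ratio of this fragment was -0.71 and did not pass (adjusted p = 0.14, limma).

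On chromosome 8, 2 members were lower in PVH. In chr8:73423702-73424606 (905 bp), PVH and ARH read 155 and 353 on replicate 1 and 202 and 365 on replicate 2, a ratio of -1.03 ± 0.24 (adjusted p = 0.0078, limma). It sat between bright neighbours at 11.99 and 13.25, whose ratios of -0.19 and -0.65 did not pass. In chr8:36278225-36278520 (296 bp), PVH and ARH read 92.9 and 199 on replicate 1 and 212 and 368 on replicate 2. PVH was lower than ARH on each array, though the PVH value of replicate 2 exceeded the ARH value of replicate 1, and the ratio was -0.95 ± 0.21 (adjusted p = 0.019, limma). Its brighter neighbour chr8:36278521-36279212, at level 12.59, was lower in PVH as well, at -1.24 (adjusted p = 0.00031, limma). The neighbour on its other side, chr8:36277327-36278224 at level 7.90, had a ratio of 0.21, positive on both arrays, and did not pass.

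The other 3 fragments lower in PVH lay on chromosomes 2, 15 and 11. On chromosome 2, chr2:9798526-9798897 (372 bp) was at -0.96 ± 0.038 and lies in the group of 6 members named above. Its PVH signal on replicate 1 failed the background flag at 1 of 4 probes. On chromosome 15, chr15:99248053-99249016 (964 bp) was at -0.95 ± 0.37, between longer dim neighbours of 1858 and 1788 bp that did not pass. The adjusted p of these fragments on chromosomes 2 and 15 was 0.019 and 0.022 (limma). On chromosome 11, the mean over the probes of chr11:85657248-85658375 (1128 bp) rested mainly on replicate 1. There PVH and ARH read 39.6 and 146, but 136 and 151 on replicate 2. Its ratio of -1.03 ± 1.23 (adjusted p = 0.0080, limma) was -1.89 on replicate 1 and -0.16 on replicate 2. On replicate 1 its PVH signal failed the background flag at 2 of 4 probes. Those same probes read higher in PVH on replicate 2, at 149 against 108 and 116 against 71.7. The remaining probes read lower in PVH on both arrays. With only probes above background in every channel, the ratio was -1.38 (adjusted p = 1.7e-05, limma). With loess on the processed signals the fragment did not pass (adjusted p = 0.23, limma), and it passed in 8 of 11 alternatives.

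Higher in PVH were 2 fragments. In chr13:72423512-72424747 (1236 bp), PVH and ARH read 90.4 and 23.5 on replicate 1 and 92.8 and 28.9 on replicate 2. Both PVH values exceeded both ARH values, at a ratio of 1.81 ± 0.18 (adjusted p = 2.0e-09, limma), but the ARH signal failed the background flag at 3 of its 4 probes on one array or both. Over the alternatives that gave a ratio, it ran from 0.65 to 1.92. With only probes above background in every channel, fewer than 2 were left and the fragment could not be tested. Its neighbours on both sides were also higher in PVH, at 1.43 (level 11.39, adjusted p = 9.4e-06, limma) and 1.09 (level 8.25, adjusted p = 0.0035, limma). The next fragment of that chain, chr13:72426247-72427958, is one of the 6 at the floor and gave no ratio.

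In chr5:139792918-139793960 (1043 bp), PVH and ARH read 128 and 53.3 on replicate 1 and 198 and 80.6 on replicate 2. At 1 of the 3 tested probes the ARH signal failed the background flag on both arrays. The ratio over these 3 was 1.11 ± 0.086 (adjusted p = 0.0027, limma), and it was 0.46 and did not pass when only probes above background in every channel were kept (adjusted p = 0.96, limma). Its neighbours were higher in PVH by less, at 0.66 and 0.69, and did not pass.

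The touching neighbours of the 10 differing members could be tested in 15 cases. Of these 15, 13 had a mean ratio of the same sign as the member and 5 passed the test, each in the same direction as its member. Over all 22350 tested intervals 1.39% passed. No matching shares for touching fragments in general are given here, so the counts are a description. All 5 neighbours that passed were themselves above the limit of 8.2, as were most of the 15.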

How the data were processed

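The arrays were Agilent 2-colour arrays, 1 per replicate. Per the file headers, the deposited intensity values were made with Agilent Feature Extraction 10.5.1.1, while the submitters' processing notes name 9.1.3.1. Its processed signals were background-subtracted, spatially detrended and scaled by 1 dye factor per channel, and its log10 ratio of red over green, deposited beside them, was not used. Probe positions are mm8 per the file headers. The deposited table of 23738 intervals holds a log2 ratio per interval, with median 0.046 and 0.018. Set against the scanner files, these values ran as PVH over ARH (r = 0.96 and 0.98 across intervals), and their centring is not stated.

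Each array had 90535 non-control spots, of which 92.5% to 95.0% were well above background, and none was saturated. Their median raw signal lay between 559 and 851 by channel, and that of the negative controls between 39 and 53. The number of arrays, 2, limits the precision. Probes lying wholly inside an interval were averaged on the log2 scale. Ratios of 84715 probes, after 79 outlier spots were removed, were turned to PVH over ARH, centred on each array's median, averaged per interval and tested with limma 3.58.1 in R 4.3.3 (lmFit, eBayes, Benjamini-Hochberg at 0.05). On simulated data of 22350 intervals, this test recovered 10.4% of 1.5-fold, 53.7% of 2-fold and 100% of 4-fold changes, and 28 of its 137 calls were false.

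The fragments and lists were chosen with earlier results of these data known. Named by rule were the 6 dimmest members, the 3 nearest to the limit on each side, every member past the test, the 4 lowest of the all-dim chains with 4 members, and the 4 members with the brightest neighbours. A list of genes was drawn up but not applied, since no annotation or sequence of the files' build was used here. Alternatives covered the limit, chain length, probe number, background correction, loess, centring, filters, prior, dye sign and fragment length. Spot medians stood in for spot means in the background-corrected alternatives.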

Additional observations from a re-analysis of the deposited data

How the results depend on the processing

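The count of 1054 dim fragments followed the definition of a chain: it was 2716 with chains of 2 or more and 413 with chains of 4 or more, since those take in more or fewer candidates. Under the other settings it was 926 to 1285, and 1002 to 1132 without one replicate. The count of 10 differing members was 1 with normexp alone, 18 with a trended robust prior and 0 with unturned signs, which measures dye instead (2 intervals of all 22350 passed there). It was 2 among members of 400 to under 1000 bp, chosen as a setting after seeing the data, where fewer fragments enter. The remaining settings gave 8 to 12. Over all intervals 311 passed, against 676 with normexp and loess, 37 with normexp alone and 454 with a trended robust prior. The cause of these differences was not tested.

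The median log2 ratio of the members, 0.06, was 0.082 with loess, 0.095 with normexp alone, 0.039 with at least 3 probes, 0.117 with the deposited table, 0.046 with a limit of 8.0 and 0.139 at 400 to under 1000 bp. It was -0.0088 with unturned signs, and 0.027 to 0.050 without one replicate. The 10 named fragments had 108 values with a test under the alternatives, of which 92 kept direction and passed, 16 kept direction and did not pass, and 0 reversed. Of the 16, 9 were with normexp alone. Leaving out a replicate left 1 array and no test.

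No paired analysis was possible because, beyond the within-array ratio on which the test already rests, the replicate number leaves no block to fit. Alternatives on sequence features and gene start windows were not run, for want of probe sequences and an annotation of the files' build. Fragments near the array floor limit the comparison of the nuclei, and 95 members had no test.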
